A study of Mus musculus with 2 samples.

Results

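Arteries and veins are lined by endothelial cells that carry different sets of genes, and 9 genes known for this arteriovenous identity were followed by symbol among the 32574 genes of both deposited gene lists. They are Sema3g, Gja5, Gja4, Efnb2, Ephb4, Bmx, Sox17, Nr2f2 and Stmn2, and all 9 were found in both files. Their unique molecular identifier (UMI) counts were described across endothelial subtypes and other cell types, which were gated by lists of marker genes holding no member, and between the genotypes. The study sequenced single cells, droplet by droplet, from the adductor muscle of WT mice and of Apoa1bp-/- mice (genotype label AIBP-KO) 7 days (the label gives day 7) after the femoral artery, which feeds the hind limb, was ligated. Apoa1bp is listed under its current symbol Naxe and encodes AIBP, a binding protein of apolipoprotein A-I. All mice had the ligation, with 4 mice operated on per genotype and littermates as the WT controls. The sources used here give no age and do not say whether the mice of a genotype were pooled, and the knockout is labelled only as Apoa1bp-/-, with no cell type restriction. There was 1 library per genotype, so no difference between genotypes had a replicate check and none was tested.

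Arterial and venous endothelial cells differ before and after blood flow begins. On the arterial side, Notch signalling and SoxF transcription factors act upstream of genes such as Efnb2, and gap junctions couple the cells along the vessel wall. On the venous side, the nuclear receptor COUP-TFII, encoded by Nr2f2, holds down the Notch programme, and the receptor EphB4 meets ephrin-B2 where arterial and venous domains touch. After an artery is blocked, muscle is supplied through collateral arteries and new capillaries, and arterial genes are known from many tissues to mark the cells that line or build such vessels.

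The roles of the members are as follows. Gja5 (ENSMUSG00000057123) and Gja4 (ENSMUSG00000050234) encode connexin 40 and connexin 37, the gap junction proteins of arterial endothelium. Efnb2 (ENSMUSG00000001300) encodes the membrane ligand ephrin-B2 and Ephb4 (ENSMUSG00000029710) its venous receptor. Sema3g (ENSMUSG00000021904) encodes a secreted class 3 semaphorin, and Sox17 (ENSMUSG00000025902) a SoxF transcription factor. Bmx (ENSMUSG00000031377) encodes a Tec family tyrosine kinase found in arterial endothelium and in myeloid cells. Nr2f2 (ENSMUSG00000030551) is the venous and lymphatic regulator named above. Stmn2 (ENSMUSG00000027500) encodes a stathmin that binds tubulin and is best known from neurons, and it was followed here beside the arterial genes.

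Promoter sequences were at hand for 7 of the 9 members, as 300 bases from RefSeq (build GRCm38.p6) that run from 250 bases before to 50 after the start of the gene, and not for Sox17 or Stmn2. The promoters of the arterial connexins, of Sema3g and of Nr2f2 are printed here because these genes marked opposite ends of the endothelial subtypes. They lie at chr3:97032152-97032451 on the plus strand (Gja5), chr4:127313990-127314289 on the minus strand (Gja4), chr14:31217623-31217922 on the plus strand (Sema3g) and chr7:70366697-70366996 on the minus strand (Nr2f2). Each is written 5′ to 3′ along its gene, and capitals mark the motif letters found on either strand.
Gja5: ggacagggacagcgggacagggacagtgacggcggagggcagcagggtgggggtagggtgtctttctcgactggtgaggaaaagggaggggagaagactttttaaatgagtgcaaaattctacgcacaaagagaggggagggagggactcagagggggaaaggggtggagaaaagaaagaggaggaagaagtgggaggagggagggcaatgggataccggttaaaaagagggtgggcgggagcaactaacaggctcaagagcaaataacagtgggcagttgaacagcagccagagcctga
Gja4: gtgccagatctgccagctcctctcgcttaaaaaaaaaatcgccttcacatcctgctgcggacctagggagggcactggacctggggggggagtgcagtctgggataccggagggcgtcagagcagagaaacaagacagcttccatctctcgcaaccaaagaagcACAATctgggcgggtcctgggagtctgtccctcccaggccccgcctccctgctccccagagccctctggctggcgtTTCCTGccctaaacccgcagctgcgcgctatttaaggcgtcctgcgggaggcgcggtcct
Sema3g: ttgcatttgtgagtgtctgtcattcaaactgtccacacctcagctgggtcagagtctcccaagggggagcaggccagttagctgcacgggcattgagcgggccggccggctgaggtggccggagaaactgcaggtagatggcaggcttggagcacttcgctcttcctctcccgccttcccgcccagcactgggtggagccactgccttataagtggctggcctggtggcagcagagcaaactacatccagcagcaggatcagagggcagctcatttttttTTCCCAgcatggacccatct
Nr2f2: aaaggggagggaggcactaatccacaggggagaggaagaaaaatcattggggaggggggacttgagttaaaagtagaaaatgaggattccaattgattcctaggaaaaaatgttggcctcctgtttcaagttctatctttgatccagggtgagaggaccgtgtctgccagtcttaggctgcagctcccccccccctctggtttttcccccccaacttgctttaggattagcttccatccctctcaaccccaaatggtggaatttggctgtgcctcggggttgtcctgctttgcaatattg
The letters searched were the SOX core ACAAT, the ETS core CAGGAA, the GATA core AGATAA and the RBPJ core TGGGAA, each also as its reverse complement. Of all 32851 promoters of this length, 31.0% held the SOX letters, 30.6% the ETS letters, 11.2% the GATA letters and 25.6% the RBPJ letters. The Gja4 promoter held 1 SOX and 1 ETS match, and the Sema3g promoter 1 RBPJ match. The Bmx promoter, which is not printed, held 3 SOX matches, 1 ETS match and 1 RBPJ match. No match lay in the windows of Gja5, Efnb2, Ephb4 or Nr2f2, which says only that these letters are not in those bases.

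The WT library held 14035 barcodes and 80954991 UMIs, of which 12351 cells were kept at a median of 4169 UMIs, and the knockout library held 9392 barcodes and 80444279 UMIs, with 8682 cells and a median of 6624 UMIs. Naxe, the targeted gene, gave 3347 UMIs over the WT cells kept and 0 over those of the knockout. The series title speaks of endothelial cells, but the libraries held all cells of the muscle, and 371 WT and 372 knockout cells passed the endothelial gate. These had medians of 2520 UMIs in WT and 7242 in the knockout library, and this gap in depth lies beside every comparison between them. All 10 endothelial markers were detected in both sets, and 28 barcode sequences occurred in both libraries. Levels are given as CPM, the UMIs of a gene per 1000000 UMIs of the gated set. Intervals, in parentheses, are exact at 95% and hold the counting error alone, not the variation between animals. Ratios divide the knockout level by the WT level. 

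Within the endothelium the gates gave 28 WT and 30 knockout arterial-like cells, 255 and 253 capillary-like cells, 12 and 20 venous-like cells, 15 and 7 lymphatic-like cells and 15 and 9 cells with the tip-cell list highest, while 46 and 53 endothelial-like cells met no subtype gate. The gates went by the share of a list's markers that a cell held, and the leading list was ahead by at most 1 marker in 8 in 52 WT and 61 knockout cells, so many calls lie near the edge. The arterial-like set was led, besides its own markers, by Gkn3, which no list used, at a fold of 16.9 over other endothelial-like cells (computed with 10 CPM added). The venous-like set was led by Ackr1 but also held UMIs of Tagln, Eln and Myog. In the knockout venous-like cells the summed pericyte list was at 731 CPM, the fibroblast list at 1218 CPM and the myogenic list at 594 CPM, against 0, 178 and 0 CPM in WT. The cells gated on the tip-cell list were led by Retnla and also held Lyz1, Lcp2 and Ccl6, genes of myeloid cells, and the capillary-like set was led by the haemoglobin gene Hbb-bs and by Timp4.

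Gja5, the connexin 40 gene, was far higher in arterial-like than in capillary-like cells in both libraries. It had 98 UMIs in arterial-like WT cells, 898 CPM (729 to 1095), and 79 UMIs in arterial-like knockout cells, 290 CPM (230 to 362). In capillary-like cells Gja5 was at 25.3 CPM in WT against 18.6 CPM in the knockout library. The arterial-like level was thus 35.6 times the capillary-like level in WT (23.6 to 54.8) and 15.6 times in the knockout library (10.9 to 22.3). No UMI of Gja5 was found in lymphatic-like cells or in cells gated on the tip-cell list of either library. Venous-like cells held 0 UMIs in WT and 1 in the knockout library. Against the floor of 3 UMIs the WT arterial-like point level was 11.8 times as high, without its own counting error. Gja5 stood second among all genes by fold of arterial-like over other endothelial-like cells, although no member was used in the gate.

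Gja4, the connexin 37 gene, was also highest in arterial-like cells, at 596 CPM in WT (460 to 760), against 529 CPM in the knockout library (446 to 623). A single cell held 32 of the 65 UMIs of the WT arterial-like set, whose level was 370 CPM without it. Lymphatic-like cells came next with 114 CPM (52.1 to 216) in WT and 310 CPM (208 to 445) in the knockout library. Capillary-like cells held 40.3 and 57.2 CPM. Venous-like cells held no UMI of Gja4 in either library. Against the floor of 3 UMIs, the arterial-like point level was 7.83 times as high in WT and 23.2 times in the knockout library. These folds leave out the counting error of the arterial-like level, and the WT one includes that single cell. Gja4 was also found outside the endothelium, in the mural cells that wrap vessels. Pericyte-like cells held 307 CPM in WT (253 to 369) and 383 CPM in the knockout library (345 to 423), and smooth muscle-like cells 211 and 219 CPM. Of all Gja4 UMIs, 30.8% in WT and 32.6% in the knockout library lay in endothelial-like cells and 26.3% and 32.9% in pericyte-like cells.

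Sema3g, the semaphorin gene, had 385 CPM in WT arterial-like cells (278 to 520) and 264 CPM in knockout arterial-like cells (207 to 333). Capillary-like cells held 46.6 and 29.6 CPM, an arterial-over-capillary ratio of 8.26 in WT and 8.93 in the knockout library. Venous-like and lymphatic-like cells held no Sema3g UMI in either library. Outside the endothelium, Schwann-like cells, the glia of peripheral nerve, held 47.5 CPM in WT from 6 UMIs and 41.0 CPM in the knockout library from 18 UMIs. Myogenic-like cells held 6.32 and 4.01 CPM. The Schwann-like and WT capillary-like levels of Sema3g therefore lay within each other's counting error.

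Stmn2, the stathmin gene, was high in arterial-like and in lymphatic-like cells. It was at 715 CPM in WT arterial-like cells (565 to 892) and 694 CPM in knockout arterial-like cells (599 to 800). Lymphatic-like cells held 494 CPM in WT (351 to 675) and 460 CPM in the knockout library (333 to 619). The lymphatic-like level was 0.691 times the arterial-like one in WT (0.458 to 1.03) and 0.663 times in the knockout library (0.464 to 0.927), an interval that left out 1 in the knockout library alone. One WT lymphatic-like cell held 30 of the 39 Stmn2 UMIs, 8 of the 15 cells held none, and without that cell the WT level was 222 CPM. Capillary-like cells held 77.4 and 86.1 CPM of Stmn2, so the lymphatic-like level with all cells was 6.38 times the capillary-like one in WT and 5.34 times in the knockout library. Venous-like cells held 0 UMIs in both libraries. Against the floor of 3 UMIs the arterial-like point level was 9.39 times as high in WT and 30.4 times in the knockout library, without its own counting error. Schwann-like cells, which belong to nerve, held 0 UMIs of Stmn2 in WT and 2 in the knockout library, and the Schwann list in arterial-like cells summed to 0 and 3.67 CPM.

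Efnb2, the ephrin-B2 gene, showed a shallower gradient that did not stop at the artery. Arterial-like cells held 807 CPM in WT (647 to 994) and 441 CPM in the knockout library (365 to 527). Lymphatic-like cells held 329 and 96.3 CPM, capillary-like cells 220 and 138 CPM, cells gated on the tip-cell list 125 and 66.9 CPM, and venous-like cells 127 and 38.1 CPM from 5 UMIs in each library. A single cell held 16 of the 26 Efnb2 UMIs of the WT lymphatic-like set. The arterial-like level was 3.66 times the capillary-like level in WT (2.85 to 4.67) and 3.20 times in the knockout library (2.59 to 3.93). In WT the tip-list, venous-like and lymphatic-like intervals each overlapped a neighbour in this order, so only the arterial-like set stood clear of the rest. Sox17, the SoxF factor gene, had a still shallower gradient from arterial-like to capillary-like and venous-like cells and a sharp edge toward lymphatic-like cells. It was at 532 CPM in WT arterial-like cells (404 to 687), 228 CPM in capillary-like cells (202 to 255) and 152 CPM in venous-like cells (55.9 to 332). The knockout levels were 422, 224 and 160 CPM in the same order. Cells gated on the tip-cell list held 85.3 CPM of Sox17 in WT (45.4 to 145.8) and 163.6 CPM in the knockout library (102.5 to 247.6). Lymphatic-like cells held 0 UMIs in WT and 1 in the knockout library.

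Bmx, the kinase gene, was the sparsest member, with 33 UMIs in all kept WT cells and 52 in all kept knockout cells. Arterial-like cells held 4 UMIs (36.7 CPM, 9.99 to 93.9) in WT, with 8 in the knockout library (29.4 CPM, 12.7 to 57.9). WT lymphatic-like cells held 7 UMIs (88.7 CPM, 35.7 to 183), an interval that overlapped the arterial-like one, and knockout lymphatic-like cells held 1. Neutrophil-like cells, which are myeloid, held 47.5 CPM in WT from 4 UMIs and 46.0 CPM in the knockout library from 14 UMIs, and these intervals overlapped the arterial-like ones. Only 48.5% of the WT and 26.9% of the knockout Bmx UMIs lay in endothelial-like cells.

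**Figure D1:**
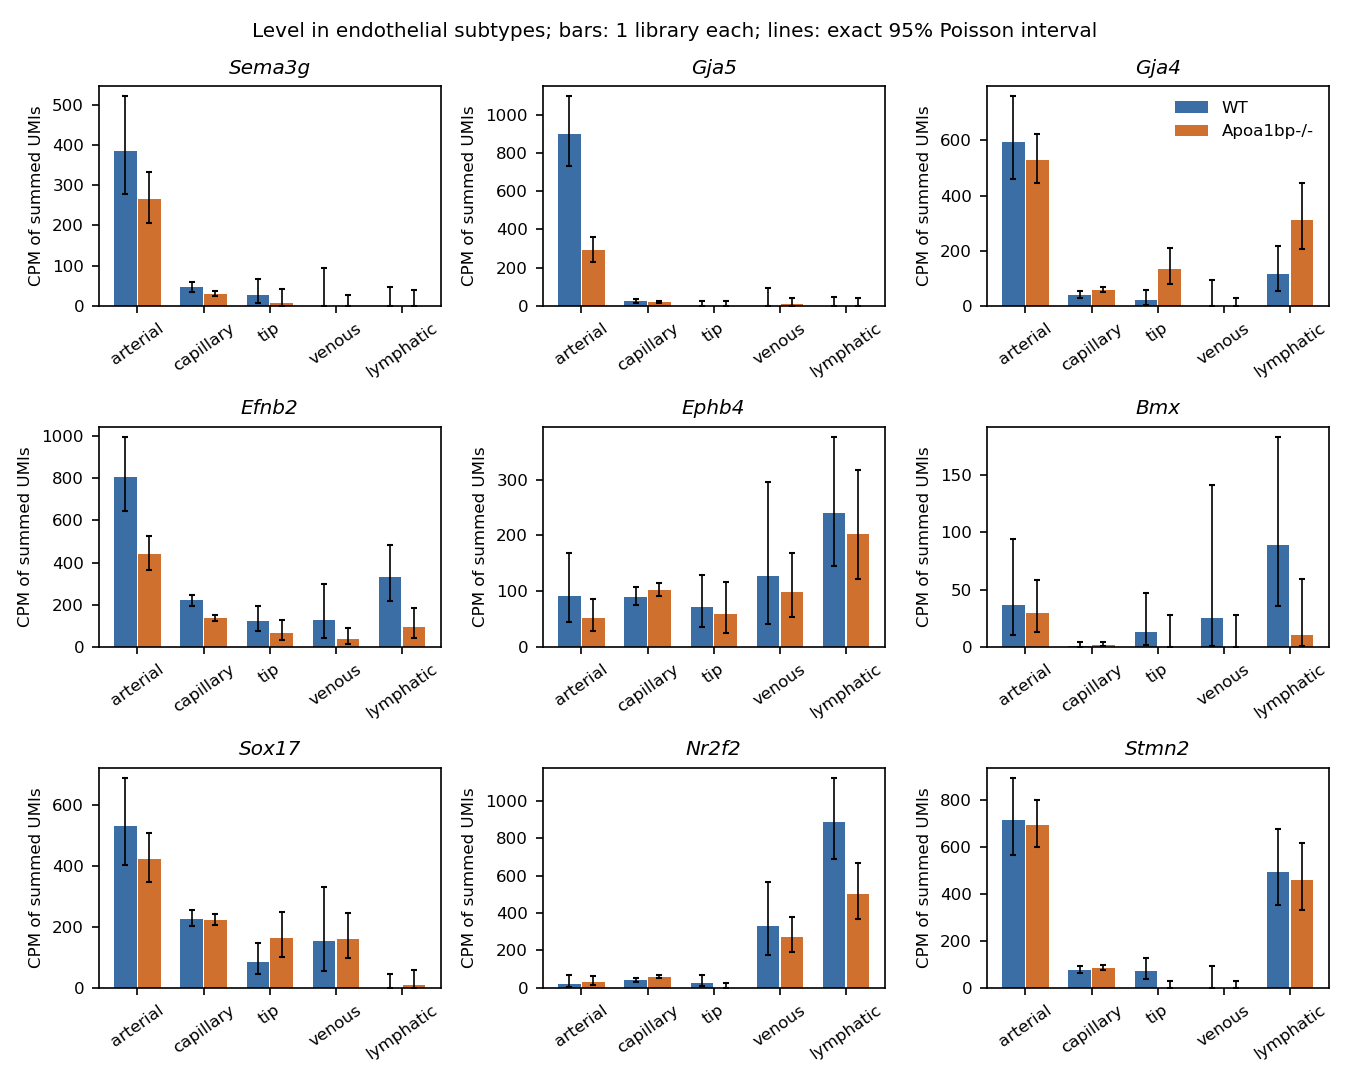
Level of each member in 5 gated endothelial subtypes (vertical axes, CPM of the summed UMIs, one scale per gene from 0), with a blue bar for the WT library and an orange bar for the Apoa1bp-/- library and lines for exact 95% Poisson intervals. Gja5, Gja4, Sema3g, Efnb2, Sox17 and Stmn2 are highest in arterial-like cells in both libraries, while Nr2f2 and Ephb4 are highest in lymphatic-like cells. The lymphatic-like Ephb4 intervals overlap the venous-like ones in both libraries.

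The venous genes had their highest levels in lymphatic-like cells, not in venous-like cells. Nr2f2, the COUP-TFII gene, was at 330 CPM in WT venous-like cells (176 to 564) and 274 CPM in knockout venous-like cells (192 to 379). Arterial-like cells held 18.3 CPM from 2 UMIs in WT and 33.0 CPM from 9 UMIs in the knockout library, and capillary-like cells 41.9 and 59.5 CPM. In the knockout library the arterial-like level was 0.121 times the venous-like one (0.0511 to 0.255). The venous-like level was 7.88 times the capillary-like level in WT (3.94 to 14.7) and 4.60 times in the knockout library (3.13 to 6.62). Higher still were lymphatic-like cells, at 887 CPM in WT (691 to 1120), against 503 CPM in the knockout library (369 to 668). The lymphatic-like level was 2.69 times the venous-like one in WT (1.47 to 5.30) and 1.83 times in the knockout library (1.16 to 2.91). A single lymphatic-like cell held 39 of the 70 WT UMIs of Nr2f2, and a single cell 16 of the 47 knockout UMIs. As a mean over WT cells, Nr2f2 was at 781 CPM in the lymphatic-like and 281 CPM in the venous-like set.

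Most Nr2f2 counts came from outside the endothelium, which held 11.3% of them in WT and 13.6% in the knockout library. Pericyte-like cells were at 565 and 376 CPM, smooth muscle-like cells at 430 and 339 CPM, and Schwann-like cells at 245 and 264 CPM. The pericyte-like level thus lay above the venous-like point estimate in both libraries. The pericyte-like intervals were 491 to 647 in WT and 339 to 416 in the knockout library. They overlapped the venous-like intervals of 176 to 564 and 192 to 379. Nr2f2 is overlapped on the opposite strand by exons of B130024G19Rik in the GENCODE M21 annotation, and the sources used here do not say whether counting used the strand. The other members so overlapped were Gja5 (Gpr89), Ephb4 (Zan) and Sox17 (Gm37587), and no member shared exons with a gene on its own strand.

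Ephb4, the ephrin-B2 receptor gene, had lower point levels in arterial-like than in venous-like cells, but the counts were too few to separate these sets. Venous-like cells held 5 UMIs (127 CPM, 41.2 to 296) in WT, with 13 in the knockout library (99.0 CPM, 52.7 to 169). Arterial-like cells held 10 UMIs (91.7 CPM, 44.0 to 169) in WT, with 14 in the knockout library (51.4 CPM, 28.1 to 86.2). The ratio of arterial-like over venous-like levels was 0.722 in WT (0.225 to 2.69) and 0.519 in the knockout library (0.226 to 1.20), and both intervals held 1. Capillary-like cells held 90.0 CPM in WT against 102 CPM in the knockout library, where the arterial-like level was 0.502 times the capillary-like one (0.271 to 0.855). Lymphatic-like cells were highest at 241 and 203 CPM. Outside the endothelium Ephb4 was spread thinly over many cells. Fibroblast-like cells held it at 13.1 CPM in WT against 16.9 CPM in the knockout library, and being numerous they carried 46.7% and 27.9% of all its UMIs.

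**Figure D2:**
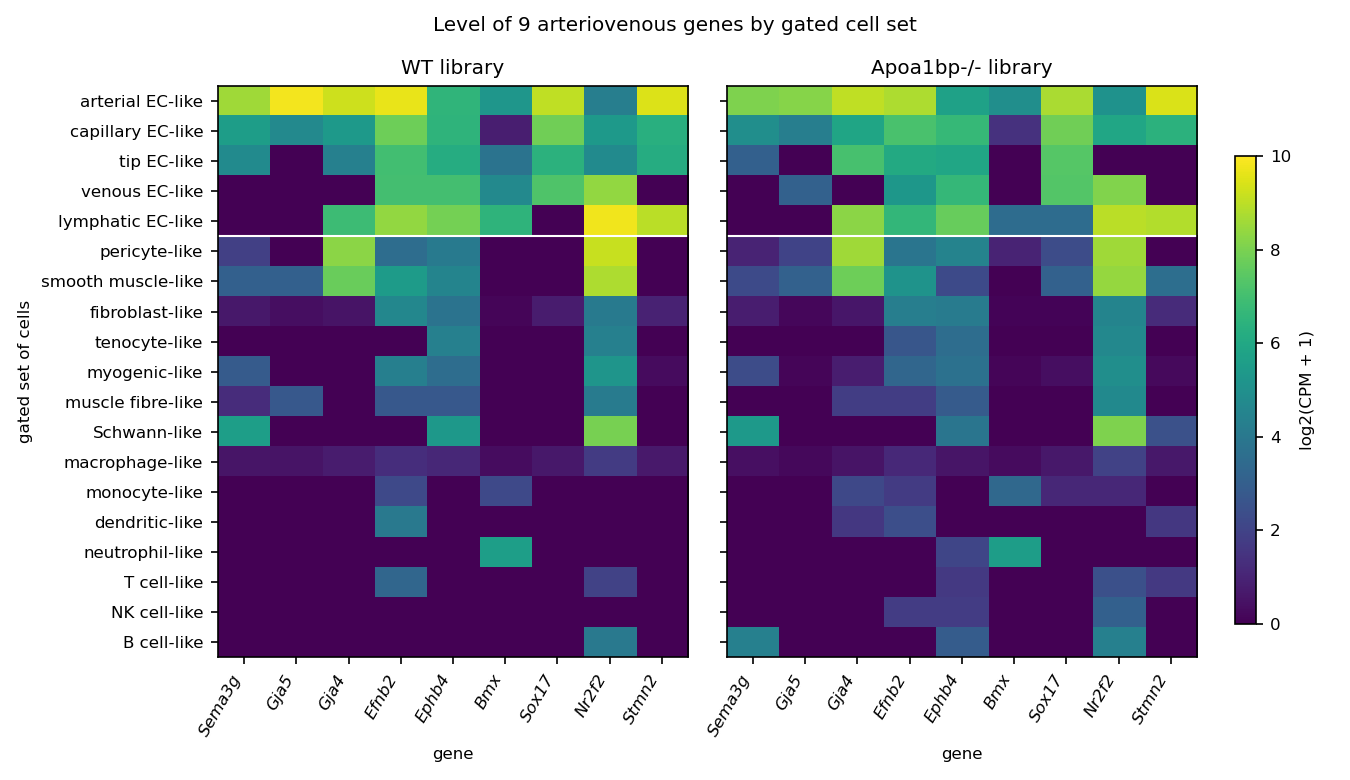
Level of the 9 members, as log2(CPM + 1) by colour, in gated sets of cells (rows, endothelial subtypes above the white line) of the WT library at left and the Apoa1bp-/- library at right. Gja5, Sox17 and Stmn2 fade below the line, whereas Gja4 and Nr2f2 stay bright in pericyte- and smooth muscle-like cells, Nr2f2 and Sema3g appear in Schwann-like cells and Bmx in neutrophil-like cells.

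Endothelial-like cells carried most UMIs of Gja5 (71.9% in WT and 71.4% in the knockout library), Sox17 (73.6% and 73.1%) and Stmn2 (64.0% and 76.1%). Cells that met no cell type gate held a further 14.6% and 22.8% of the Gja5 UMIs and 29.1% and 26.5% of the Gja4 UMIs, so the gated sets do not hold every vessel cell. Macrophage-like cells, which apart from the myeloid gene Bmx should lack these genes, served as the background. All 9 members lay there between 0.150 and 2.96 CPM in both libraries. The zeros of the small sets are weaker than they look: 0 UMIs in the 12 WT venous-like cells allow up to 76.1 CPM by the 3-count floor.

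To compare shares of cells at equal depth, each cell was thinned to 1000 UMIs and shallower cells were left out, which kept 304 of the 371 endothelial-like cells in WT and 349 of the 372 in the knockout library. Sox17 was then detected in 22.7% of endothelial-like cells in WT (18.1 to 27.8%) and 21.2% in the knockout library (17.03 to 25.9%). Efnb2 was detected in 20.4% (16.0 to 25.4%) and 16.3% (12.6 to 20.6%), and Gja5 in 4.93% (2.79 to 8.01%) and 4.30% (2.43 to 6.99%). For these genes the intervals of the libraries overlapped widely. Gja4 was detected in 3.95% of WT cells (2.06 to 6.79%) and 8.60% of knockout cells (5.88 to 12.04%), with intervals that also overlapped. In thinned macrophage-like cells the shares of these 4 genes ranged from 0.0302% to 0.140%. Unthinned, Sox17 was found in 46.1% of endothelial-like cells in WT and 65.1% in the knockout library, and Gja4 in 12.1% and 26.6%, where median depths were 2520 and 7242 UMIs. Macrophage-like cells, with medians of 4294 and 6669 UMIs, held Sox17 in 0.189% and 0.410% and Gja4 in 0.359% and 0.205%.

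The arterial members were then counted cell by cell, without thinning. Median depths were 2276 UMIs in WT and 6198 in knockout arterial-like cells, and 2698 and 8398 in capillary-like cells. No thinned count of members per cell was made, so these counts do not compare the libraries at equal depth. Of the 6 arterial members (Sema3g, Gja5, Gja4, Efnb2, Bmx and Sox17), at least 3 were detected in 15 of 28 WT and 23 of 30 knockout arterial-like cells. No venous-like cell had 3 of them, in either library. Among capillary-like cells 35 of 255 in WT and 65 of 253 in the knockout library had 3 or more, so cells with several arterial members were more numerous in the large capillary-like set than in the arterial-like set itself. Gja5 and Nr2f2 were found in the same cell in 4 WT and 9 knockout endothelial-like cells, while Gja5 without Nr2f2 was found in 31 and 49. Over all endothelial-like cells, Nr2f2 was found in 15.9% in WT and 32.3% in the knockout library. Thinned, Gja5 and Nr2f2 shared 1 cell in each library, beside 14 cells in each with Gja5 and no Nr2f2. Gja5 shared a cell with Stmn2 in 25 of its 35 WT cells and in 42 of its 58 knockout cells. After thinning, Gja5 and Stmn2 were found together in 10 of the 15 WT cells that kept a Gja5 UMI and in 5 of the 15 knockout cells. Efnb2 and its receptor gene Ephb4 were found in the same cell in 58 WT and 108 knockout endothelial-like cells before thinning and in 4 and 3 after it.

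The likeness of each member's pattern to other genes was measured by Pearson's r of log2(CPM + 5) over 19 gated sets, both libraries summed, among 11090 genes, leaving out members and gate markers. The sets share libraries and depth, so these values describe the patterns and carry no test. Sox17 was closest to the SoxF gene Sox7 (r = 0.98), then Cyyr1 and Exoc3l. Gja5 was closest to Nepn (r = 0.96), then Fgfr3 and Halr1, and Stmn2 to Ssu2 (r = 0.95), then Akr1c14 and Rasgrf2. Efnb2 was closest to Stc1 (r = 0.95), then Ifi44 and Gata2, and Ephb4 to Yes1, Tspan18 and Ramp2, all at r = 0.95. Sema3g was closest to Lrrc3b (r = 0.89), Alox12 and Car7, and Gja4 to Iffo2 (r = 0.85), Epas1 and Septin4. Bmx was closest to Maff (r = 0.87), Rybp and Rsad2, each of them highest in neutrophil- or lymphatic-like cells. Nr2f2 was closest to B130024G19Rik (r = 0.91), the gene that overlaps it on the other strand, then Rock2 and Nynrin. Among members, Efnb2 correlated with Stmn2 at r = 0.87 and with both Ephb4 and Sox17 at r = 0.84, whereas Gja5 and Nr2f2 stood at r = 0.15.

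Between the genotypes, the arterial gene Gja5 and the ligand gene Efnb2 were lower in the endothelial-like cells of the knockout library, while the ratios of the SoxF, venous and stathmin members had intervals that held 1. Gja5 was at 74.7 CPM in WT (133 UMIs), against 37.5 CPM in the knockout library (147 UMIs), a ratio of 0.503 (0.395 to 0.640). Efnb2 was at 249 CPM in WT against 147 CPM in the knockout library, a ratio of 0.589 (0.520 to 0.669). These were the 2 of 8 measured members at least 1.5-fold lower, a change past which 14.2% of 6429 genes lay, and 0 of 8 were at least 1.5-fold higher, where 5.55% of genes lay. Measured means at least 20 CPM in either library with a UMI in both. Scaling by the median ratio of all genes instead moved this background split from 357 higher and 916 lower genes to 693 and 518, with the same 2 members lower. The median log2 ratio was -0.05 over the 8 members and -0.14 over all 6429 genes.

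The size of the Gja5 and Efnb2 differences over all endothelial-like cells depended on how the cells were weighted. As the mean of each cell's own CPM, Gja5 was at 71.5 in WT and 69.9 in the knockout library, a ratio of 0.977. In cells thinned to 1000 UMIs its ratio was 0.688 from 19 WT and 15 knockout UMIs (0.325 to 1.43). Efnb2 kept its 1.5-fold difference in 12 of 13 alternatives, and in thinned cells its ratio was 0.812 from 74 and 69 UMIs (0.577 to 1.14). Sema3g had a ratio of 0.680 (0.532 to 0.873), just inside 1.5-fold, and 1.05 in thinned cells. Beside these ratios, the arterial marker list of the gate itself was at 1233 CPM in WT against 745 CPM in knockout endothelial-like cells, and the pericyte list at 701.9 and 290 CPM. Their part in the member ratios was not tested.

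Gja4 ran the other way, at 74.1 CPM in WT against 97.3 CPM in knockout endothelial-like cells, a ratio of 1.31 (1.07 to 1.61). It passed 1.5-fold in 4 of 13 alternatives, among them 1.52 without cells holding 2 or more pericyte markers, 1.65 without the cell with the most Gja4 UMIs in each library and 2.04 as a mean over cells. In thinned cells the Gja4 ratio was 1.65 from 19 WT and 36 knockout UMIs, with an interval that held 1 (0.922 to 3.05). Sox17 stood at 216 and 220 CPM (ratio 1.02, 0.902 to 1.15), Stmn2 at 131 and 132 CPM (ratio 1.01, 0.861 to 1.18) and Ephb4 at 92.7 and 95.5 CPM (ratio 1.03, 0.856 to 1.246). Nr2f2 stood at 84.2 and 77.6 CPM (ratio 0.922, 0.756 to 1.13). The intervals of these 4 genes all held 1, which does not show that their levels were equal. Bmx had 16 WT and 14 knockout UMIs (8.98 and 3.58 CPM) and was under the minimum level.

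Over all kept cells, where the totals include every cell type, the ratios were different. Sox17 was at 7.80 CPM in WT against 16.0 CPM in the knockout library, a ratio of 2.05 (1.85 to 2.28), while endothelial-like cells were 3.004% of WT and 4.29% of knockout cells and 1780988 and 3916179 of the UMIs. Gja4 had a ratio of 2.48 over all cells (2.22 to 2.78), where pericyte-like cells were 1.14% and 1.80%. Efnb2, by contrast, had a ratio of 0.871 over all cells (0.806 to 0.941), and Gja5 of 1.02 (0.828 to 1.24).

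In arterial-like cells alone, Gja5 was at 898 CPM in WT against 290 CPM in the knockout library, a ratio of 0.323 (0.237 to 0.439). The Gja5 ratio stayed past 1.5-fold in all 12 alternatives (0.288 to 0.594). In thinned cells it was 0.429 from 16 WT and 8 knockout UMIs, with an interval that held 1 (0.159 to 1.06). A single cell held 33 of the 98 WT UMIs of Gja5, and a single cell 22 of the 79 knockout UMIs. Efnb2 had a ratio of 0.546 (0.411 to 0.728), which was 1.07 in thinned cells, where 12 WT and 15 knockout UMIs were left. Of the 9 members, 3 were at least 1.5-fold lower, where 29.6% of 6541 genes lay, and 1 was at least 1.5-fold higher, where 21.3% lay. These counts are near that background, in sets where the minimum of 20 CPM is 2.18 WT UMIs. The other lower member was Ephb4 at 0.561 (0.232 to 1.41), and the higher one was Nr2f2 from 2 and 9 UMIs, and neither interval leaves out 1. Gja4 (0.887, 0.658 to 1.21), Sox17 (0.794, 0.574 to 1.11) and Stmn2 (0.971, 0.742 to 1.28) also had intervals holding 1. The arterial-like Gja4 ratio ran from 0.551 in thinned cells to 1.76 as a mean over cells, lay on the same side of 1 in 8 of 12 alternatives, and was 1.32 without the cell with the most Gja4 UMIs in each library.

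The spread among the arterial-like cells was wide. Gja5 ranged from 0 to 3182 CPM over the 28 WT cells, with a median of 268 CPM and 12 cells at 0. Over the 30 knockout cells it ranged from 0 to 2837 CPM, with a median of 221 CPM and 9 cells at 0. The medians of Gja5 thus differed far less than the summed levels, and the sets overlapped over nearly their whole range. Efnb2 had medians of 699 CPM in WT against 381 CPM in the knockout library, Stmn2 of 374 and 582 CPM and Sox17 of 369 and 469 CPM. Gja4 had a median of 0 in WT, where 17 cells held none, and of 559 CPM in the knockout library, where 9 cells held none, in cells with median depths of 2276 and 6198 UMIs. The arterial list used for the gate was at 4226 CPM in WT against 2416 CPM in knockout arterial-like cells and the endothelial list at 10150 and 8041 CPM, whereas the pericyte list was at 220 and 569 CPM and the myogenic list at 27.5 and 235 CPM. Their part in the ratios of Gja5 and Efnb2 was not tested.

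**Figure D3:**
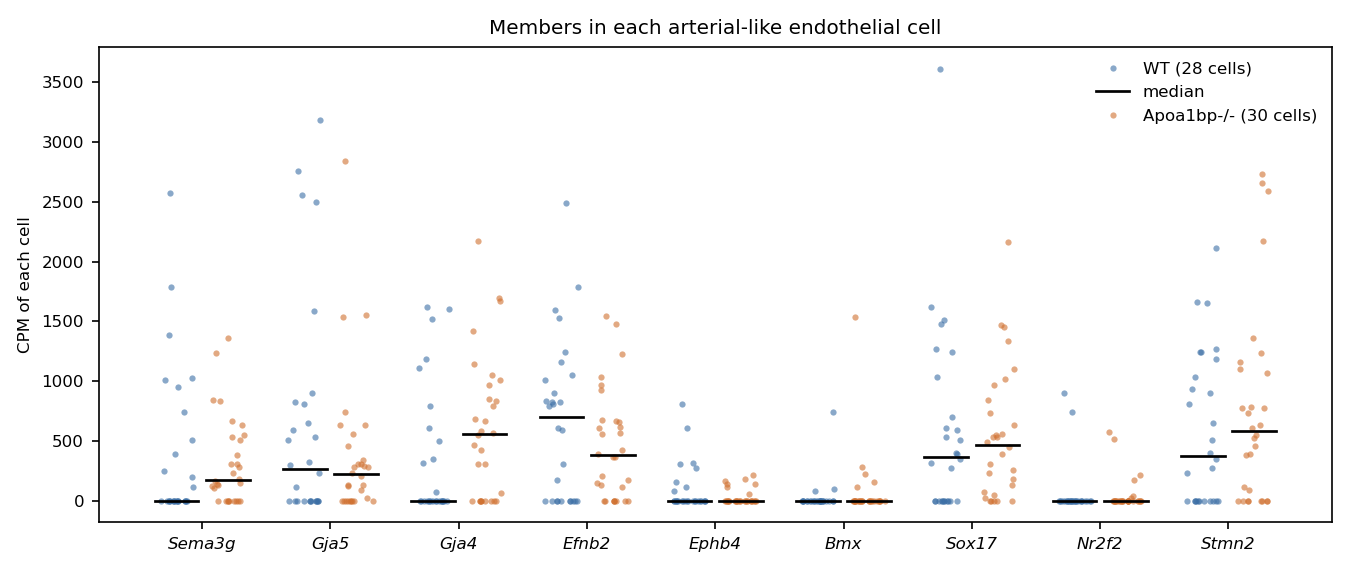
Each point is 1 arterial-like cell, its height the cell's own CPM of the gene on the horizontal axis, blue for the 28 WT cells and orange for the 30 Apoa1bp-/- cells, and the black line is the median over cells. For Gja5 a handful of WT cells lie above 2000 CPM, with a highest cell of 3182, while the medians of 268 and 221 are close; cells at 0 are frequent in every gene.

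Capillary-like cells, the largest subtype, had Efnb2 at 220 CPM in WT (195 to 248), against 138 CPM in the knockout library (125 to 152), a ratio of 0.625 (0.536 to 0.730). The Efnb2 ratio passed 1.5-fold in 9 of 12 alternatives. In thinned cells it was 0.8085 from 53 WT and 49 knockout UMIs, with an interval that held 1 (0.537 to 1.215). Sema3g had a ratio of 0.635 (0.452 to 0.898), which turned to 1.31 in thinned cells from 8 and 12 UMIs (0.493 to 3.70). These were the 2 of 8 measured members at least 1.5-fold lower, where 15.5% of 6329 genes lay, and 0 were at least 1.5-fold higher, where 6.62% lay. Gja4 and Nr2f2 were each at a ratio of 1.42 (1.03 to 1.98 and 1.04 to 1.97), under 1.5-fold. Gja4 passed 1.5-fold there in 7 of 12 alternatives, up to 7.87 in thinned cells from 2 WT and 18 knockout UMIs (1.88 to 69.9), and Nr2f2 in 5 of 12, up to 1.99. Gja5, at 0.737, ran from 0.679 to 3.06 over the alternatives, with 9 of 12 on the same side of 1. The median log2 ratio of these members was 0.07, against -0.14 over all measured genes.

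In the small lymphatic-like sets Gja4 was at 9 WT and 29 knockout UMIs, a ratio of 2.72 (1.254 to 6.53), and Efnb2 at 26 and 9 UMIs, a ratio of 0.292 (0.121 to 0.644). Nr2f2 had a ratio of 0.567 there (0.383 to 0.832), and Stmn2 of 0.931 (0.589 to 1.47). Over 12 alternatives the Nr2f2 ratio ran from 0.283 to 0.929. That of Stmn2 ran from 0.635 to 3.24, passed 1.5-fold in 5 and kept its side of 1 in 7, and was 2.19 without the cell with the most Stmn2 UMIs in each library. Efnb2 was thus below 1 in the arterial-, capillary-, lymphatic- and venous-like sets, although the venous ratio of 0.300 came from 5 UMIs in each library (0.0690 to 1.303). In cells gated on the tip-cell list Gja4 had 3 WT UMIs and 18 knockout UMIs, all from 3 knockout cells. Outside the endothelium, Efnb2 in fibroblast-like cells was at 24.0 and 18.4 CPM (ratio 0.770, 0.667 to 0.887) and in myogenic-like cells at 19.0 and 8.96 CPM (ratio 0.473, 0.347 to 0.644). Nr2f2 in pericyte-like cells had a ratio of 0.665 (0.560 to 0.792) and Gja4 of 1.247 (1.01 to 1.55), and macrophage-like Efnb2 stood at 1.49 and 1.24 CPM.

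The families of the members were examined in endothelial-like cells to see how far the members stood among their relatives. Over all genes, 14.2% were at least 1.5-fold lower and 5.55% higher, with a median log2 ratio of -0.14. Ratios of named genes other than the members, here and below, were made at the main setting only. The thinned, mean-over-cells and pericyte-marker alternatives were not run for them. Of 4 measured connexin genes, Gja5 and Gja1 (connexin 43) were at least 1.5-fold lower and 0 were higher. Gja1 was at 254 CPM in WT against 137 CPM in the knockout, with a ratio of 0.539 (0.475 to 0.613), while Gja4 and Gjc1 (connexin 45; 1.251, 0.905 to 1.75) were above 1. In the ephrin-B and EphB family, Efnb2 and the receptor gene Ephb1 (0.511, 0.352 to 0.743) were the 2 of 4 at least 1.5-fold lower, beside Efnb1 at 0.693 and Ephb4 near 1. None of 3 measured ephrin-A and EphA genes passed 1.5-fold. Among SoxF genes, 0 of 3 passed, with Sox18 at 0.942 (0.849 to 1.05) and Sox7 at 0.731 (0.613 to 0.873).

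Sema3g was compared with its ligand and receptor family. Of 6 measured genes among class 3 semaphorins and their receptors, 3 were at least 1.5-fold lower and 0 higher, with a median log2 ratio of -0.58, where all genes gave 14.2%, 5.55% and -0.14. These were the co-receptor gene Nrp1 (450 CPM in WT, 279 CPM in the knockout, with a ratio of 0.621 and an interval of 0.566 to 0.681), the plexin gene Plxna2 (0.656, 0.546 to 0.789) and the ligand gene Sema3f (0.649, 0.501 to 0.843). Plxnd1, the plexin of endothelial cells, had a ratio of 0.691 (0.636 to 0.751). Among stathmins Stmn1, which is also a gene of dividing cells, was higher at 326 CPM in WT against 593 CPM in the knockout, with a ratio of 1.82 (1.66 to 2.00), while Stmn2 was not. The nuclear receptor gene Nr2f6 stood at 0.973 (0.782 to 1.22) beside Nr2f2, and no Tec family gene reached the minimum level.

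Of 13 measured genes on a list of other arterial genes, 3 were at least 1.5-fold lower and 0 higher, and their median log2 ratio was -0.45. The 3 were Nrp1, the Notch target Hes1 (0.644, 0.542 to 0.767) and the chemokine gene Cxcl12 (0.659, 0.620 to 0.701), and Notch1 (0.728), Notch4 (0.738) and Jag2 (0.703) lay between these and 1. Of 10 measured genes on a list of other venous genes, 0 were at least 1.5-fold lower and 1 higher, the adhesion molecule gene Icam1 at 1.89 (1.23 to 2.99), and the median log2 ratio was 0.03. These stand beside 14.2% lower and 5.55% higher over all genes and an overall median of -0.14. In arterial-like cells the lists were at 5 lower and 1 higher of 13 arterial genes (median log2 ratio -0.42) and 6 lower and 2 higher of 9 venous genes (median -0.65), against a background of 29.6% and 21.3%.

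**Figure D4:**
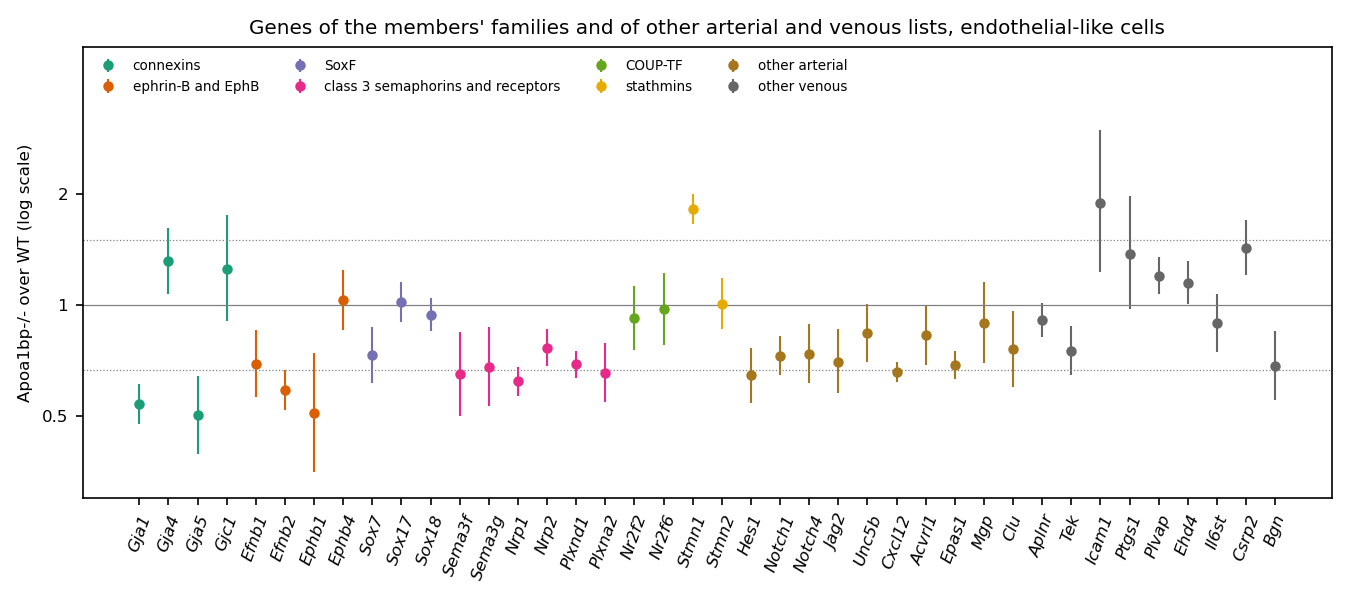
Ratio of CPM in the Apoa1bp-/- over the WT library in endothelial-like cells (vertical log axis) for measured genes of the members' families and of the lists of other arterial and venous genes, by colour, with exact 95% intervals and dotted lines at 1.5-fold. Gja1, Gja5, Efnb2, Ephb1, Nrp1, Plxna2, Sema3f, Hes1 and Cxcl12 lie below the lower dotted line and Stmn1 and Icam1 above the upper one.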

How the data were processed

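Adductor muscle was digested with collagenase D and sequenced as droplet libraries, per the labels' protocols. The authors deposited raw UMI counts per gene and barcode, which Cell Ranger produced: the file headers name 5.0.0, the submitters' processing notes 2.1.1. No source used here names the genome build or annotation. Removed were barcodes of fewer than 200 genes (49 in WT and 31 in the knockout), those above 10% mitochondrial UMIs (149 and 197) and the 1486 and 482 doublets called by Scrublet in scanpy 1.11.5 (10.7% and 5.26%, against 11.2% and 7.51% expected at 0.8% per 1000 barcodes).

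A cell took the type of the list with the largest share of its markers detected, if at least 3 were detected and the share was at least 1.25 times the next. It took the endothelial subtype whose share was strictly highest, again with 3 markers. Such gates read deeper cells more fully. There were 16 cell type lists and 5 subtype lists. The endothelial list was highest but under the margin in 41 WT and 44 knockout cells. UMIs were summed per library and set, with exact Poisson intervals for CPM, exact conditional intervals for ratios and Clopper-Pearson intervals for shares, all at 95%. Where a set held no UMI, the fold was taken against 3 UMIs and leaves out the counting error of the other set. The named genes were the members, the 3 genes most like each, and genes of fixed family lists. No test between libraries was made. Members and lists were chosen with earlier results of these data known, and the gate's margins were set after the counts had been seen. The scripts were tested on simulated data. Python 3.11.15, numpy 2.4.6, scipy 1.17.1, pandas 2.3.3 and matplotlib 3.10.9 were used. Other settings are given in the closing section.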

Additional observations from a re-analysis of the deposited data

How the results depend on the processing

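The subtype with the highest level of each member in each library was the same in 108 of 108 combinations of gene, library and gate or filter setting. Thinning was not among these settings. In cells thinned to 1000 UMIs, knockout Stmn2 was at 821 CPM in arterial-like cells (23 UMIs) and 857 CPM in lymphatic-like cells (6 UMIs). WT Bmx was then highest in venous-like cells, from 1 UMI. Of 445 ratios under other settings, 70, of 20 of the 37 set and gene combinations, lay on the other side of 1 from the main value, 2 of them from main ratios past 1.5-fold. In cells thinned to 1000 UMIs, Sema3g in capillary-like cells turned from 0.635 to 1.31 and Efnb2 in arterial-like cells from 0.546 to 1.07, which left 12 and 15 Efnb2 UMIs. Over endothelial-like cells, Gja5 went from 0.503 to 0.688 thinned, 0.977 as a mean over cells and 0.342 with subtypes weighted equally, and Efnb2 from 0.589 to 0.812 thinned and 0.485 with equal subtypes. The cause was not tested.

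Genes at least 1.5-fold higher and lower were 357 and 916 of 6429. They became 868 and 1806 of 10415 with a minimum of 5 CPM, and 1573 and 2995 of 13711 with no minimum. They became 1184 and 1677 of 6865 thinned, 693 and 518 of 6594 with size factors, and 961 and 1502 of 6886 with equal subtypes. Higher genes became 562 of 7245 without haemoglobin, mitochondrial and ribosomal genes in the totals and 636 of 6729 as a mean over cells. For members, the percentages give the share of all measured genes past the same fold. Members lower, 2 of 8 (14.2%), became 0 of 8 thinned (24.4%) and 1 of 8, Efnb2, as a mean over cells (20.1%). With equal subtypes they became 4 of 9 (21.8%), namely Sema3g, Gja5, Efnb2 and Bmx. They became 3 of 8 at a margin of 1 (14.0%), where Sema3g was added. At a minimum of 5 CPM (17.3%) and with no minimum (21.8%) they became 3 of 9, where Bmx was added. Members higher, 0 of 8 (5.55%), became 1 of 8 thinned (17.25%) and 1 of 8 as a mean over cells (9.45%). Without cells of 2 or more pericyte markers they also became 1 of 8 (5.6%), and the gene was Gja4 each time. The pericyte-marker setting, the margins of 1 and 1.5, leaving out the cell with the most UMIs of a gene, the relative subtype rule and thinning for the counts were added after seeing the data. Size factors divide each ratio by the median of all genes, 0.905 in endothelial-like cells. No paired analysis was possible because each genotype has 1 library. Depth limits Bmx and the venous-, lymphatic- and tip-list sets.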
